A study of Mus musculus with 11 samples.

Results

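The genes described here are 10 regulators and matrix genes known from the mesenchyme of the embryonic head: the transcription factors Twist1, Twist2, Prrx1, Foxc1, Foxc2 and Foxd1, the receptor Pdgfra, and the matrix genes Lum, Dcn and Postn. They were picked by gene symbol, and 10 of the 20475 genes listed in each of the 2 deposited tables carry one of these names. RNA-seq was used to ask how transcript levels in the mouse forebrain at E12.5 differ when Kif20a, which encodes a mitotic kinesin of dividing progenitors, is disrupted. The labels name the tissue forebrain and the cells neural, whereas the methods of the study name cortical cells. For the germline comparison, 3 wild-type and 3 knockout libraries came from littermates of the knockout-first line, in which a LacZ and neomycin resistance cassette interrupts Kif20a in every cell. That line descends from 1 embryonic stem cell clone and was bred to C57BL/6J. For the inducible comparison there were 2 wild-type and 3 knockout libraries. Its knockouts carry Nestin-CreERT2 and Kif20a fl/fl, so that recombination after tamoxifen is directed to Nestin-expressing cells, chiefly neural progenitors. Its controls were littermates exposed to the same tamoxifen, given to the dams on consecutive days before collection. For experiments at later stages the paper names such controls as Kif20a fl/fl, and for these libraries it says only wild-type. All inducible embryos thus shared the drug, and they shared the floxed allele if these controls were Kif20a fl/fl as well. The labels do not say that libraries came from separate embryos, so p-values measure the spread between these libraries.

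Cranial mesenchyme is loose connective tissue that arises from neural crest and head mesoderm and wraps the forebrain. It gives rise to the meninges, the skull vault and the dermis, and its inner layer lies directly on the cortical surface. Basic helix-loop-helix factors of the Twist family and paired-related and forkhead factors maintain these cells, PDGF signalling through Pdgfra supports their growth, and their descendants secrete collagen-binding proteoglycans such as lumican and decorin.

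Values are normalized counts, which the authors equalized within each table, taking most genes as unchanged. The library totals lay between 13048716 and 15551274 in the germline table, highest in knockout replicate 2, and between 24118520 and 24497307 in the inducible table. After this scaling a total no longer shows sequencing depth, and levels at or under 3 normalized counts were treated as having no order. Differences are given on the scale of log2(normalized count + 1), which understates changes of low genes. Testing with limma was limited to genes whose mean reached 10 normalized counts, and a gene was called when its fold change was at least 1.5 and its unadjusted P at most 0.05.

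Kif20a itself followed the labels. In the germline table it stood at 2456, 2295 and 2680.2 normalized counts in wild-type libraries, against 409, 374 and 503 in the knockouts (log2 fold change -2.54, standard error 0.15, limma with Benjamini-Hochberg adjusted p = 0.00845, lower in 3 of 3). In the inducible table it stood at 4760.2 and 4844, against 3125, 2915 and 2853 in the knockouts (log2 fold change -0.70, standard error 0.057, limma with Benjamini-Hochberg adjusted p = 0.0107, lower in 3 of 3). The inducible knockouts kept between 59.4% and 65.1% of the mean wild-type level. The inducible Kif20a row is one of 106 in that table that carry only 2 decimals and stand out of chromosome order. By name they are exactly the genes the authors selected as differential in that comparison.

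Germline knockout replicate 2 stood apart from the other 5 germline libraries as a whole. On the first principal component, which carried 58.0% of the variance over all tested genes, it lay at 91.2, and the others lay between -38.4 and 3.84. The germline calls are therefore given with and without that library. Transcripts of Y-linked genes were high in wild-type replicates 1 and 3 and in knockout replicate 3 and near 0 in the rest of the germline libraries, so sex did not divide the genotypes there. In the inducible table their sum was near 0 in both wild-type libraries and high in all 3 knockouts, though Ddx3y alone stood at 2.0 in knockout replicate 2, so sex and genotype cannot be told apart.

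Twist1, a helix-loop-helix factor needed in head mesenchyme and for the skull sutures, was listed at 38.1, 39.1 and 64.6 normalized counts in wild-type libraries of the germline table and at 477, 0.66 and 156 in knockout replicates 1, 2 and 3. Knockout replicates 1 and 3 thus lay above every wild-type library and replicate 2 lay below all of them, at a level with no order. Its close relative Twist2, which acts in dermal and bone precursors, stood at 5.13, 2.85 and 5.0 in the wild-type and at 68.9, 0 and 51.2 in the knockouts. Knockout replicates 1 and 3 again lay above every wild-type library and replicate 2 was listed at 0, but wild-type replicate 2 was itself under the floor, so these have no order between them. Twist2 reached the filter only through its high knockout libraries, since its wild-type mean was 4.33, so a gene in its position had to differ in order to be tested. In a bulk sample, fewer cells of a type and less RNA per cell cannot be told apart, and this holds for every value that follows.

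Prrx1, a paired-related homeobox factor of limb and craniofacial mesenchyme, had values of 728, 735 and 818 in the wild-type, against 1868, 427 and 979.6 in the knockout libraries. The wild-type libraries were close together, knockout replicates 1 and 3 lay above them, and replicate 2 lay below them at 56.2% of their mean. That was the largest share of a wild-type mean that any of the 10 genes kept in this library. Foxc1, a forkhead factor required for the meninges and the skull vault, measured 236, 159 and 303 in the wild-type, against 763, 20.5 and 403 in the knockouts. Foxc2, its paralog in vessel-associated and somitic mesenchyme, measured 35.7, 16.1 and 42.2 against 119, 0 and 76.4. For both forkhead genes wild-type replicate 2 was the lowest of the wild-type libraries, knockout replicates 1 and 3 exceeded all of these, and knockout replicate 2 fell under all of them. Foxd1, a forkhead factor of stromal precursors and of the developing visual system, was at 66.4, 90.2 and 102 in the wild-type and at 259, 1.55 and 255 in the knockouts. Its knockout replicates 1 and 3 were nearly equal, about 3.00 and 2.96 times the wild-type mean of 86.1 ± 18.0 (SD, n = 3), and replicate 2 was under the floor of 3 normalized counts.

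**Figure D1:**
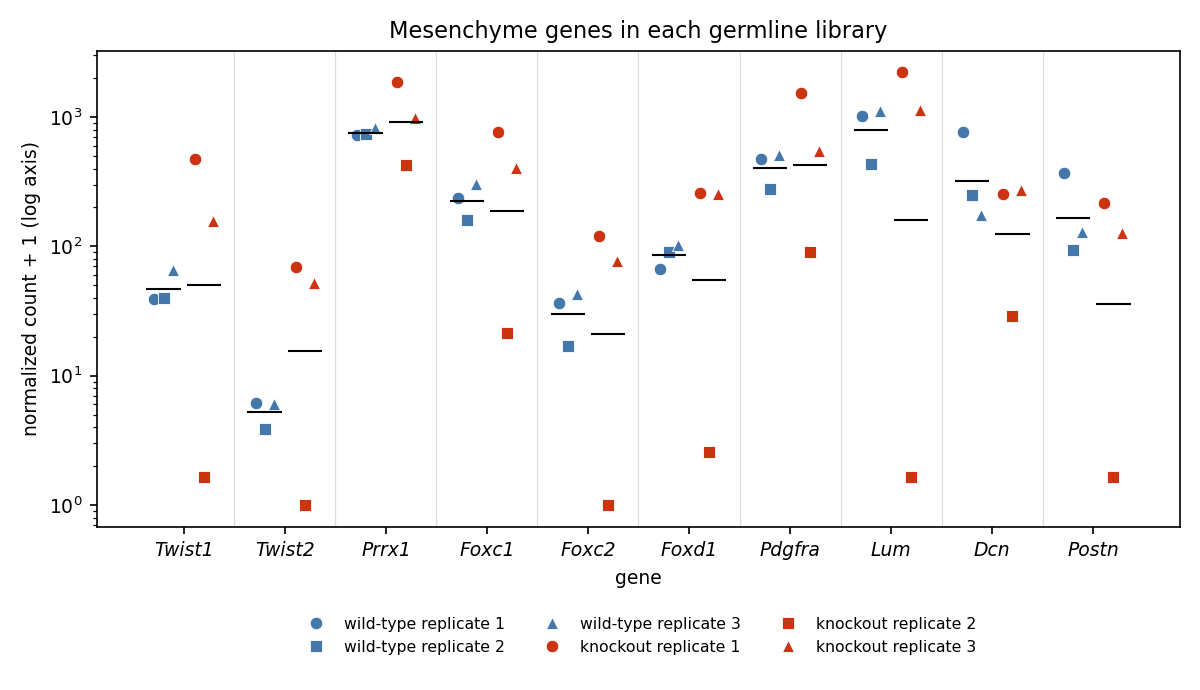
Level of the 10 mesenchyme genes in each germline library. The vertical log axis gives the normalized count + 1, blue points are the 3 wild-type and red points the 3 knockout libraries, with one marker shape per replicate, and each black line is the mean of a group on the log scale. Knockout replicate 2, the red square, lies under every wild-type library for 9 of 10 genes, at 0.66 for Twist1 and 427 for Prrx1, and for Twist2 both it and wild-type replicate 2 are under the floor.

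Pdgfra, the receptor for PDGF-A and PDGF-C that mesenchyme carries widely and that later marks oligodendrocyte precursors, was at 469.6, 278 and 507 in the wild-type and at 1524, 90.2 and 547 in the knockouts. Knockout replicate 3 passed the highest wild-type library by a small margin, and replicate 2 kept 21.6% of the wild-type mean. Among the matrix genes, Lum, which encodes the keratan sulfate proteoglycan lumican, had 1026, 432 and 1123 against 2218, 0.65 and 1139. Knockout replicate 2 was down to the floor for a gene that reached 4 digits in most of the other libraries, whereas replicate 3 matched wild-type replicate 3 closely. Dcn, which encodes decorin, a regulator of collagen fibril spacing, had 759, 249 and 173 in the wild-type, against 253, 27.8 and 271 in the knockouts. Postn, which encodes periostin, a matricellular protein of fibroblasts and periosteum, had 372, 92.2 and 128 against 217, 0.65 and 126. In these last genes wild-type replicate 1 was the highest library, knockout replicates 1 and 3 fell within the wild-type range, and only knockout replicate 2 was outside it.

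Read across the genes, the germline knockouts thus did not form a group. Knockout replicate 2 lay under every wild-type library for 9 of 10 genes where all wild-type libraries had to be above the floor, which leaves out Twist2, against 37.0% of all 13938 genes tested. Regardless of the floor these were 10 of 10 and 37.2%. Knockout replicates 1 and 3 lay above and replicate 2 under every wild-type library for 7 of 10, against 4.51% of tested genes, Dcn and Postn being the other exceptions, or for 8 of 10 and 4.61% regardless of the floor. Groups that did not overlap were found for 0 of 10 genes, against 13.5% of tested genes. The summed level of the 10 genes came to 3736, 2093 and 3265 normalized counts for the wild-type, against 7767, 569 and 4004 in the knockout libraries. Knockout replicate 1 therefore held 256%, replicate 2 held 18.8% and replicate 3 held 132% of the mean wild-type sum. In knockout replicate 2, 6 of the 10 genes were at or under 3 normalized counts and 2 of these, Twist2 and Foxc2, were listed at 0. Of all 20475 genes listed, 4554 were at 0 in this library, the most of any germline library. Exact zeros do not compare these libraries well, since some list values just above 0 instead. Wild-type replicate 2 had 2861 genes at 0 and 1572 above 0 but under 0.3, and knockout replicate 1 had 2861 and 1256. In knockout replicate 2, 0 genes lay in that range. The SD of log2 levels among the knockouts was at least 1 for 10 of 10 genes, with a median of 3.62, against 9.98% of tested genes with a median of 0.31. Among the wild-type libraries 2 of 10, Dcn and Postn, had an SD of at least 1, against 1.89% of tested genes.

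With all 6 libraries limma called 0 of 10 genes higher and 0 of 10 lower in the germline knockouts, against 2.07% and 0.667% of tested genes, and 0 of 10 had an unadjusted P up to 0.05, against 5.39%. Log2 fold changes ran from -2.30 for Lum, with a 95% confidence interval of -8.25 to 3.64, to 1.56 for Twist2, with an interval of -2.13 to 5.25. Their median was -0.39, beside -0.043 over all tested genes, with 4 of 10 above 0. These intervals are too wide to give a direction for any of the 10 genes. For 8 of 10 genes, Dcn and Twist2 apart, the sign of the log2 fold change turned when a single library was left out.

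Without knockout replicate 2, the 2 remaining knockouts gave a different count. Then 8 of 10 genes were called higher, against 4.19% of tested genes, and 0 of 10 lower, against 4.58%. With Twist2 set aside, which could be tested only if higher, 7 of 9 were called higher. Their unadjusted P was at most 0.0423, and none passed Benjamini-Hochberg adjustment over all genes tested with limma. Among these 7 the log2 fold change was largest for Twist1, at 2.55 (standard error 0.46, limma with Benjamini-Hochberg adjusted p = 0.122, higher in 2 of 2). Foxc2, Foxd1, Foxc1, Pdgfra, Lum and Prrx1 had log2 fold changes of 1.68, 1.59, 1.30, 1.17, 1.00 and 0.83, with adjusted p between 0.122 and 0.329 in limma with Benjamini-Hochberg adjustment. Dcn at -0.29 and Postn at 0.014 were not called, and their 95% confidence intervals, -1.48 to 0.90 and -1.21 to 1.23, covered differences in either direction. The median over the 10 genes was 1.24 without that library, but -1.64 without knockout replicate 1, and it was -1.13 with knockout replicate 3 and -0.15 with wild-type replicate 3 left out. A fit of all 6 libraries that weighted each by its quality in limma called 3 of the 10 genes higher, Twist1 (2.18), Twist2 (3.24) and Prrx1 (0.81), against 4.02% of tested genes, or 2 of 9 without Twist2. With quantile normalization the single call was Twist2, for which the filter fixed the direction, against 2.53% of tested genes called higher.

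**Figure D2:**
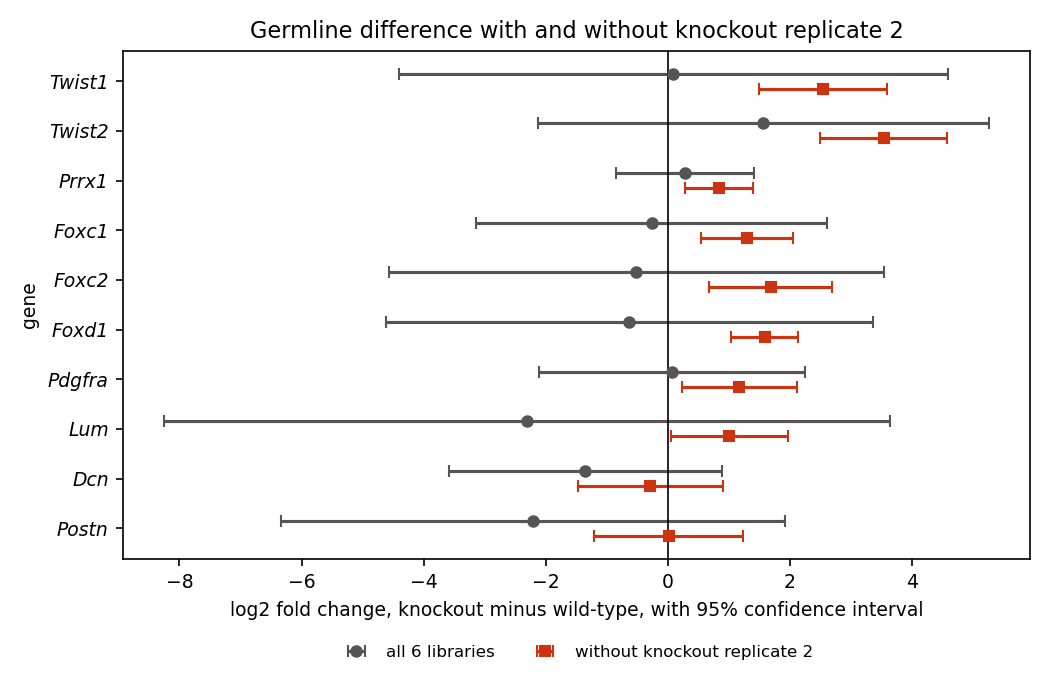
Log2 fold change of knockout minus wild-type in the germline comparison for the 10 mesenchyme genes, as points with 95% confidence intervals from limma. Grey circles use all 6 libraries and red squares leave out knockout replicate 2. With all libraries each interval covers 0, and without that library the intervals of 8 of 10 genes lie above 0. Apart from Twist2, which could be tested only if higher, these are 7 of 9.

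The bases before the transcription start were read for 4 of the factors that lay high in knockout replicates 1 and 3, Twist1, Twist2, Foxc1 and Foxd1. RefSeq promoters of GRCm38.p6 were found for 7 of the 10 genes, and the 250 bases before the start of these 4 were placed by exact match in NCBIM37 (mm9), the build of the deposited tables. CCAAT, searched on both strands, is the core of the CCAAT box found in many promoters, and capitals mark it, as CCAAT or as ATTGG where it lies on the other strand.
Twist1 (chr12:34642286-34642535, + strand): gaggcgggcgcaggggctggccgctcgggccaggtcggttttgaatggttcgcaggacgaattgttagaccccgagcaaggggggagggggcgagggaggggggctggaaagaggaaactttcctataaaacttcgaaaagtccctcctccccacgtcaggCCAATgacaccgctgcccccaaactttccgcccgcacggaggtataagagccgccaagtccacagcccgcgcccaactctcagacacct
Twist2 (chr1:93697788-93698037, + strand): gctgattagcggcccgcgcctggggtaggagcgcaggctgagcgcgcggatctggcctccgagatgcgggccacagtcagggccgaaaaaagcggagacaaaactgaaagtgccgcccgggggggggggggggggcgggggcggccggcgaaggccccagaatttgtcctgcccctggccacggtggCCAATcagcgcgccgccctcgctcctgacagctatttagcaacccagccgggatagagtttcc
Foxc1 (chr13:31898265-31898514, + strand): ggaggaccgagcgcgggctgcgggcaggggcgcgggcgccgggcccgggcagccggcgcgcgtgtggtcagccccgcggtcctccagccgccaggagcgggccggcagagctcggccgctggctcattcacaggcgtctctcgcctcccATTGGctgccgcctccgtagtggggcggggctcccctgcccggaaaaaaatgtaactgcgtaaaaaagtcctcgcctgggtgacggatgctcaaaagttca
Foxd1 (chr13:99123950-99124199, + strand): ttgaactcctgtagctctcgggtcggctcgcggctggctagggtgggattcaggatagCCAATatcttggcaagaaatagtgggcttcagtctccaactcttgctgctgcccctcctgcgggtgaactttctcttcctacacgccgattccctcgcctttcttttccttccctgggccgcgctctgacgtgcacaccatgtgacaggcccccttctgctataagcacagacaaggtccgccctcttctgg
Each of the 4 windows shown held 1 CCAAT, but no other member window held it, so this count follows from which windows are shown. Prrx1, also high in knockout replicates 1 and 3, had a promoter without it. Over the 8 windows of the 7 genes, Postn having 2, CCAAT was in 4, and 33.8% of all 32851 promoter windows of this length held it. CANNTG, the E-box letters that helix-loop-helix factors bind, was in 2 of the 8 windows, those of Foxd1 and Pdgfra, against 66.2% of all. TAATTA, a homeodomain core, was in 1 of the 8, that of Prrx1, against 4.84%. These are matches of letters only, the marked motif was chosen after its matches were seen, and no binding was measured.

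Lum and Dcn are neighbours on chromosome 10, in the same orientation, with 47357 bases between them in the GENCODE M1 annotation. Lum lies at chr10:97028135-97035337 and Dcn at chr10:96942245-96980777 in NCBIM37 (mm9). Their germline levels did not run in parallel among the wild-type libraries, where Dcn was highest in replicate 1 and Lum in replicate 3. Both were lowest in knockout replicate 2. So was Epyc, another small leucine-rich proteoglycan gene of that stretch, which was listed at 0 there. Kera, also on that stretch, stood at no more than 6.02 in any germline library.

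Levels of different genes were compared per kb of exon. In the germline wild-type libraries Lum came first with 415 ± 180.2 normalized counts per kb (SD, n = 3), followed by Dcn with 203 ± 165. Prrx1, Pdgfra and Foxc1 followed with 68.7 ± 4.54, 62.0 ± 18.2 and 58.3 ± 18.0, then Foxd1 with 35.0 ± 7.33, Twist1 with 29.3 ± 9.30, Postn with 25.2 ± 19.4, Foxc2 with 11.5 ± 5.0 and Twist2 with 3.26 ± 0.96. Neighbours in this order overlapped between libraries except for Dcn over Prrx1 and Foxc2 over Twist2. In the inducible wild-type libraries the order was the same at the top, with Lum at 484 ± 53.7 and Dcn at 163 ± 20.4 per kb (SD, n = 2), and at the bottom, with Twist2 at 4.97 ± 2.42. The tables were normalized separately, so levels are set side by side here and were not tested across them.

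Other genes of the same tissue were read as lists, none of which shares a gene with the 10. Of 22 other mesenchyme transcription factors tested with limma, 0 were called in the germline comparison and 0 had an unadjusted P up to 0.05. Knockout replicate 2 lay under every wild-type library for 16 of them, against 37.2% of all tested genes, regardless of the floor. Without that library 12 were called higher, against 4.19% of all tested genes. They were led by Alx1, an aristaless-type factor of the face, with 11.4, 8.23 and 23.7 in the wild-type, against 371 and 91.4 in knockout replicates 1 and 3 (log2 fold change 3.71, limma with Benjamini-Hochberg adjusted p = 0.122, higher in 2 of 2), and followed by Tfap2b at 2.87 and Six2 at 2.77. Foxl2 and Tbx18, above the floor in every wild-type library, were among the genes listed at 0 in knockout replicate 2. The sum of this list did not follow the 10 genes, and its most abundant gene, Zeb2, which neural cells also transcribe, stood at 4463 in knockout replicate 2. Of 24 collagen and matrix genes tested, 4 were called higher with all libraries and 0 lower, against 2.07% and 0.667% of all tested genes. Fn1 was the most abundant. The called genes were Fbln2 (log2 fold change 1.29), Col12a1 (1.17), Fbn1 (0.86) and Fn1 (0.59), each above every wild-type library in knockout replicates 1 and 2 and with a limma adjusted p of 0.779 after Benjamini-Hochberg adjustment. The collagen genes Col3a1 and Col1a1 did otherwise. Col3a1 had 2387, 1838 and 4037 in the wild-type, against 8253, 2.46 and 4489 in the knockouts. Col1a1 had 593, 610.4 and 765 against 2801, 11.5 and 1361. Both lay above every wild-type library in knockout replicates 1 and 3 and under every one in replicate 2. Without knockout replicate 2, 16 of 24 matrix genes were called higher, against 4.19% of all tested genes, Thbs2 (1.86), Col1a1 (1.58), Col12a1 (1.54) and Fbn2 (1.51) by the most. Among 9 other small leucine-rich proteoglycan genes and 6 PDGF ligands and other receptors, 0 were called with all libraries and 0 had an unadjusted limma P up to 0.05, and without knockout replicate 2 Ogn, Omd and Pdgfrb were called higher. The most abundant genes of these lists were Bgn and Pdgfrb.

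Markers of other cell types differed between the libraries as well. For meninges 1 of 15 tested genes was called higher, Igfbp2, at 1877, 2488 and 2592 against 5448, 8884 and 2905, and for mural cells 1 of 11, Acta2. The share of all tested genes called higher was 2.07%. The summed meningeal level was 7868, 7956 and 11106 in the wild-type, against 21029, 12070.5 and 12207 in the knockouts, led by Igf2 in the wild-type mean, and Slc22a6 was listed at 0 in knockout replicate 2, as was Aldh1a2, which was under the floor in wild-type replicate 3 too. The mural sum was 2875, 2745 and 4007 against 5599, 2603 and 3959.6, led by Notch3, with Des and Kcnj8 at 0 in knockout replicate 2. For endothelium 0 of 12 genes were called, with sums of 2264, 1686 and 3325 against 3785, 879 and 2734, led by Kdr. For microglia 0 of 12 were called, with sums of 942, 648 and 546 against 623, 37.5 and 688, led by Csf1r, and Spi1 and Trem2 were at 0 in knockout replicate 2. For erythroid cells 0 of 11 were called, with sums of 150876, 98023 and 125146 against 153715, 34428 and 161809, led by Hba-a2. Knockout replicate 2 was the lowest library of each of these sums except the meningeal one. In limma 0 endothelial, 0 microglial and 0 erythroid genes had an unadjusted P up to 0.05 with all libraries. In knockout replicate 2, 10 of 15 meningeal, 9 of 11 mural, 11 of 12 endothelial, 12 of 12 microglial and 10 of 11 erythroid genes lay under every wild-type library, regardless of the floor, against 37.2% of all tested genes. Without that library limma called 6 of 15 meningeal, 4 of 11 mural, 1 of 12 endothelial and 3 of 11 erythroid genes higher and none lower, beside 7 of the 9 mesenchyme genes other than Twist2 and 4.19% of tested genes. Of the microglial genes it then called 0 of 12, with 0 at an unadjusted P up to 0.05.

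Telencephalic neural markers were read in the same way. For 12 telencephalic neural genes the sum was 49549.6, 57622 and 56806 in the wild-type, against 35485, 91869 and 41948 in the knockouts, led by Dcx. The library that was lowest in the 10 mesenchyme genes was thus the highest in this sum, and knockout replicate 1, the highest in the former, was the lowest in the latter. By gene, knockout replicate 2 was the highest library for 11 of 12 and knockout replicate 1 the lowest for 9 of 12. Nes, an intermediate filament gene of progenitors, was instead lowest in knockout replicate 2, at 6852, 10779 and 11879 in the wild-type and at 9906, 5312 and 10059 in the knockouts. With all libraries limma called 0 of the 12, with 0 at an unadjusted P up to 0.05. Without knockout replicate 2 it called 5 lower, against 4.58% of all tested genes. These were Tbr1, Dcx, Eomes, Tubb3 and Lhx2, with log2 fold changes from -1.29 to -0.64. Genes of surface ectoderm were also high in knockout replicates 1 and 3, with sums of 144, 189.9 and 189 in the wild-type, against 703, 152 and 379 in the knockouts, led by Epcam. Of its 9 tested genes Krt5, a keratin of basal epidermis, was called higher, at 0, 0.82 and 0 against 48.6, 1.62 and 40.2, and without knockout replicate 2, 8 of 10 were. As with Twist2, Krt5 and 4 more of these 8, Trp63, Wnt6, Krt19 and Cdh1, had wild-type means under the filter and reached it only through high knockout libraries, so they could be tested only if higher and the count is no measure of this list. The part of these cell types in the levels of the 10 mesenchyme genes was not tested.

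**Figure D3:**
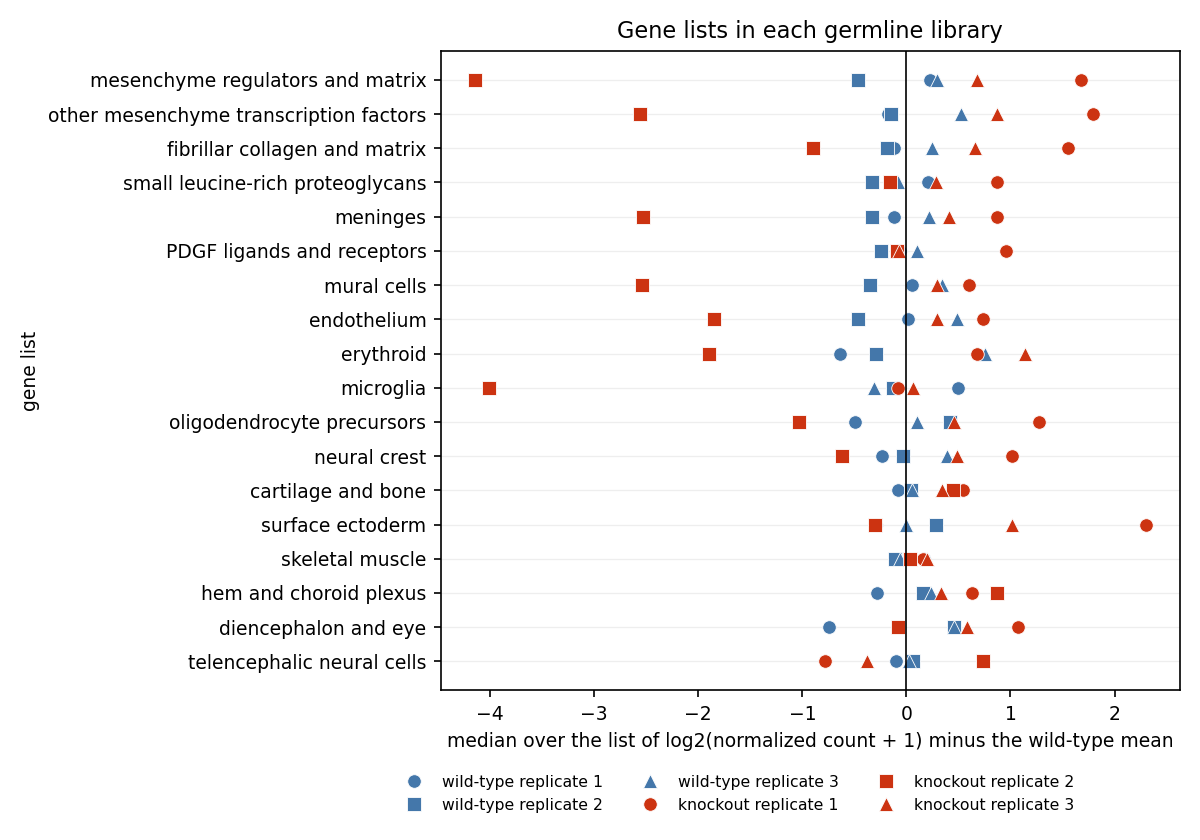
Median over each gene list of log2(normalized count + 1) minus the wild-type mean, in each germline library, over the genes past the filter. Blue points are wild-type and red points knockout libraries, with one marker shape per replicate. Knockout replicate 2, the red square, lies at -4.15 for the 10 mesenchyme genes, -4.01 for microglia and 0.74 for telencephalic neural cells.

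With all libraries, calls in the remaining lists were limited to cartilage and bone and to hem and choroid plexus. Of 6 oligodendrocyte precursor genes, 6 neural crest genes, 3 skeletal muscle genes, 10 diencephalon and eye genes and 4 Y-linked genes tested, 0 were called in limma with all libraries and 0 had an unadjusted P up to 0.05. The most abundant genes of the last 4 of these lists were Sox9, Ttn, Lhx9 and Kdm5d by their wild-type mean. Of 7 cartilage and bone genes 3 were called higher, Runx2 (log2 fold change 1.22), Col2a1 (0.81) and Col11a1 (0.75), with knockout replicate 2 above every wild-type library for each, and Sox9 had the highest wild-type mean of the list. Of 13 hem and choroid plexus genes 4 were called higher, Rspo2, Wnt8b, Rspo1 and Rspo3, and 1 lower, Ttr, which was also the most abundant. These are larger shares than the 2.07% and 0.667% of all tested genes. Without knockout replicate 2, 2 of 6 oligodendrocyte precursor, 2 of 6 neural crest, 3 of 10 diencephalon and eye, 3 of 7 cartilage and bone and 5 of 13 hem and choroid plexus genes were called higher, 1 of each of the last 2 lists was called lower, and Sox10, Col9a1 and Foxb1 among the higher ones had wild-type means under the filter. Of the skeletal muscle and Y-linked genes 0 were called in limma, with 0 at an unadjusted P up to 0.05. Over all tested genes 4.19% were called higher and 4.58% lower without knockout replicate 2.

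In the inducible comparison the first principal component carried 40.5% of the variance. Wild-type replicate 2 lay at 27.1 on it and knockout replicate 3 at -22.9, with the other libraries between -9.82 and 7.38. The summed level of the 10 genes came to 4321 and 3602 normalized counts for the wild-type, against 4367, 4543 and 4062 in the knockouts, so the knockouts held between 103% and 115% of the mean wild-type sum. Twist1 was at 71.9 and 71.4 in the wild-type and at 75.0, 53.3 and 63.7 in the knockouts. Twist2 was at 8.88 and 4.33 against 3.85, 11.2 and 5.35, which is under the filter, and was not tested. For both Twist genes the groups overlapped. Prrx1 had 1103 and 1171 against 1326, 1106 and 985. Foxc1 had 426 and 326 against 379.9, 455 and 431, and Foxc2 had 79.9 and 53.6 against 67.0, 87.0 and 80.6. In the forkhead pair wild-type replicate 2 was the lowest library and knockout replicate 2 the highest. Foxd1 had 165 and 96.4 against 128, 151 and 178. Pdgfra had 921 and 519 against 623, 746 and 592, and its knockouts lay between the wild-type libraries. Postn had 120.2 and 147 against 97.9, 178 and 164, with a knockout library at either end.

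Lum and Dcn were the exceptions to this overlap. Lum had 1083 and 925 in the wild-type, against 1219, 1273 and 1202 in the knockouts, a mean of 1004 ± 112 (SD, n = 2) against 1232 ± 37.1 (SD, n = 3). Dcn had 344 and 288 against 447, 482 and 359, a mean of 316 ± 39.6 (SD, n = 2) against 429.6 ± 63.5 (SD, n = 3). Every knockout library lay above both wild-type libraries for these matrix genes. Their log2 fold changes were 0.30 for Lum (95% confidence interval 0.11 to 0.49) and 0.44 for Dcn (0.094 to 0.78), with unadjusted limma P of 0.00695 and 0.0194 and Benjamini-Hochberg adjusted p of 0.747 and 0.825, higher in 3 of 3 knockouts. Both fell short of the fold change of 1.5.

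Over the 9 genes tested, 0 were called higher and 0 lower, against 0.802% and 0.49% of the 14081 genes tested. An unadjusted P up to 0.05 was found for 2 of 9, against 6.01%, and groups that did not overlap for 2 of 9, against 22.6%, in each case Lum and Dcn. The share of non-overlapping genes was thus close to that of all tested genes. The P of Lum passed 0.05 without wild-type replicate 2, at 0.0564, and that of Dcn without wild-type replicate 2, knockout replicate 1 or knockout replicate 2, at 0.132, 0.0552 and 0.0676. The other 7 log2 fold changes lay between -0.18 for Twist1 and 0.26 for Foxd1, and the median over the 9 genes was 0.17, beside -0.0019 over all tested genes. Leaving out wild-type replicate 1 took that median to 0.36 and Foxd1 to 0.64, and leaving out wild-type replicate 2 took the median to -0.018. Each of these fits keeps 1 wild-type library, so no gene is read as called from them. The SD of log2 levels was under 1 for 9 of 9 genes in both groups, with a highest value of 0.58 for Pdgfra among wild-type libraries and 0.46 for Postn in the knockouts. Of all tested genes only 0.575% in the wild-type and 0.447% in the knockouts had an SD of at least 1. The median SD of the 9 genes was 0.20 in the wild-type and 0.22 in the knockouts, against 0.080 and 0.095 over all tested genes.

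**Figure D4:**
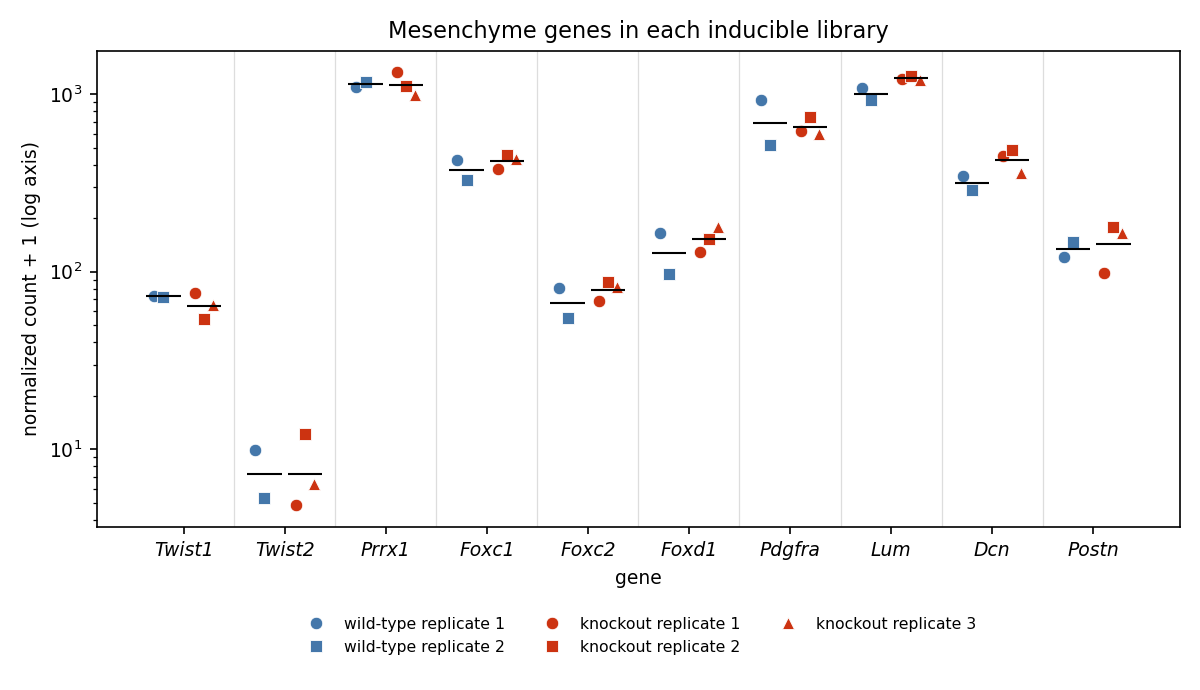
Level of the 10 mesenchyme genes in each inducible library. The vertical log axis gives the normalized count + 1, blue points are the 2 wild-type and red points the 3 knockout libraries, with one marker shape per replicate, and each black line is the mean of a group on the log scale. The groups overlap except for Lum, with wild-type libraries at 925 and 1083 and knockouts between 1202 and 1273, and Dcn.

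The related lists held no inducible call either. Of 22 other mesenchyme transcription factors, 24 collagen and matrix genes, 8 other small leucine-rich proteoglycan genes, 15 meningeal genes, 6 PDGF genes and 12 mural genes tested, 0 were called in limma, with 1, 3, 0, 4, 1 and 3 at an unadjusted P up to 0.05 and median log2 fold changes between -0.042 and 0.23. Calls among the other lists were Krt8 of 6 surface ectoderm genes and Rspo1 and Clic6 of 13 hem and choroid plexus genes, all lower, and the 4 Y-linked genes, all higher. These 7 called genes are all among the 106 rows with only 2 decimals, of which 83 were called, out of 182 calls over all genes. Of the 13 hem and choroid plexus genes 4 had an unadjusted limma P up to 0.05. Their median log2 fold change was -0.53, with 0 above 0. The summed level of that list in knockout replicates 1, 2 and 3 was 86.8%, 78.7% and 47.7% of the mean wild-type sum. Endothelium (12 genes), erythroid cells (11), microglia (12), oligodendrocyte precursors (6), neural crest (6), cartilage and bone (7), skeletal muscle (4), diencephalon and eye (11) and telencephalic neural cells (12) held 0 calls, with 0, 0, 2, 0, 1, 2, 0, 0 and 1 at an unadjusted limma P up to 0.05. The summed telencephalic neural level was 106266 and 103526 in the wild-type, against 107736, 100105 and 107407 in the knockouts, so it varied less than in the germline libraries.

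Genes whose levels ran most like the 9 members tested in both tables were sought among 13741 genes, by Pearson r with the mean centred log2 profile of the 9 over all 11 libraries, as a description that knockout replicate 2 dominates. The 10 genes with the highest r were Igf1 (0.997), Cthrc1, Cped1, Col6a3, Tbx18, Col1a2, Plau, Col6a1, Crispld1 and Bgn (0.992). Igf1, a secreted growth factor, was at 248, 107 and 282 in the germline wild-type, against 1010.2, 0.65 and 367 in the knockout libraries. Without germline knockout replicate 2, over 10 libraries, the r of these genes lay between 0.952 and 0.986, and without knockout replicates 1 and 2, over 9 libraries, between 0.891 and 0.962. An r of at least 0.9 over 11 libraries was reached by 596 genes, 4.34% of those compared. The 5 inducible libraries alone were too few for a firm correlation. Over them the r of each of these 10 genes was lower than over 11 libraries, and it was lowest for Igf1.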

How the data were processed

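Poly(A) RNA of E12.5 forebrain was measured in 11 libraries, grouped by the sample labels into germline wild-type and knockout and inducible wild-type and knockout. For each comparison the authors deposited a signal per gene, reads aligned with TopHat to mm9, counted over RefSeq exons and scaled in edgeR by trimmed means of M-values (TMM). Since values are fractional, no count model was used, and depth per library is unknown. Of the inducible rows 106, with Kif20a but 0 of the 10 genes among them, carry only 2 decimals and stand out of chromosome order. By name these are exactly the genes the authors selected as differential there. Here 83 of them were called. Each table was fitted alone in R 4.3.3 with limma 3.58.1 (lmFit, eBayes, trend fitted, two-sided) on log2(normalized count + 1), for genes with a mean of at least 10, and P was adjusted by Benjamini-Hochberg over all genes tested (13938 germline, 14081 inducible). Tables were read with Python 3.11.15 and pandas 2.3.3. The test was checked on simulated data with normal noise, in which the SD of the most variable genes was capped. That check does not cover genes that spread as widely as most of the 10 did among the germline knockouts. The thresholds, a fold change of 1.5 and an unadjusted P of 0.05, are those of the study. Exon lengths and positions come from GENCODE M1 on NCBIM37, matched for 93.1% of genes. Alternatives were other pseudocounts, filters, scalings, weights, covariates and blocks, and leaving out each library.

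All 10 members are named, with the genes of 18 other lists called with all libraries (up to 4 by size of change), some of those called without knockout replicate 2, the most abundant gene of a list by wild-type mean, and the 10 genes most like the members. Genes named beyond this rule (Kif20a, Nes, genes with wild-type means under the filter, the further telencephalic, hem and collagen genes, Kera, Epyc, Pdgfrb, and those listed at 0) were chosen after their values were seen. The members and lists were chosen with earlier results of these data known.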

Additional observations from a re-analysis of the deposited data

How the results depend on the processing

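Array weights gave 3 germline genes called higher and turned Foxc1 (1.07), Foxc2 (1.33), Foxd1 (1.11) and Lum (0.51) from lower to higher. Quantile normalization gave 1 called gene, Twist2, whose direction the filter fixed, and turned Foxc2 (0.19). The Y-linked level as a covariate turned Foxc1 (0.42), Foxc2 (0.59) and Foxd1 (0.29), and Foxc2 also turned with a pseudocount of 5 (0.11) and with length-scaled values (0.055). Leaving out each library in turn gave 0 to 8 germline genes called higher, 8 without knockout replicate 2, and log2 fold changes from -1.54 to 2.55 for Twist1, -0.23 to 0.83 for Prrx1, -0.86 to 1.17 for Pdgfra, -1.28 to 1.30 for Foxc1, -1.77 to 1.68 for Foxc2, -1.75 to 1.59 for Foxd1, -4.19 to 1.00 for Lum and -3.51 to 0.014 for Postn. The median over the 10 genes ran from -1.64 to 1.24 with a library left out and was 1.09 with array weights, 0.40 with the covariate, 0.038 with quantile normalization, -0.071 on length-scaled values and -0.063 with a pseudocount of 5. Twist2 and Dcn kept their sign in the alternatives run, and the count called lower stayed at 0. Their size did move, from 0.47 to 3.53 for Twist2 and from -1.91 to -0.29 for Dcn with a library left out. Array weights took Dcn to -0.17.

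In the inducible comparison 0 of the genes were called higher with a knockout library left out. Leaving out any library gave a median from -0.018 to 0.36, and log2 fold changes from -0.12 to 0.092 for Prrx1, -0.50 to 0.33 for Pdgfra, -0.018 to 0.36 for Foxc1, -0.039 to 0.53 for Foxc2, -0.12 to 0.64 for Foxd1 and -0.066 to 0.36 for Postn. Where 1 wild-type library remained, it is assumed to vary like the other group. Array weights turned Pdgfra (0.021). With the replicate number as a block, Prrx1 (0.092) and Postn (-0.0092) turned, and 0 of the mesenchyme genes were called in either table. Deviations of same-numbered libraries had r of -0.12, 0.31 and 0.25 in the germline and -0.35 and -0.051 in the inducible table. Germline libraries of different number had r from -0.36 to 0.33. The deviations of 2 wild-type libraries mirror each other, so the inducible values cannot show a pairing. Whether equal numbers mark paired libraries is therefore not known. Over all genes, the 289 higher and 93 lower germline calls became 560 and 484 with array weights, 110 higher with the covariate, 180 lower without a filter, and 115 to 617 higher and 42 to 642 lower with a library left out. The 113 higher and 69 lower inducible calls became 42 and 38 on length-scaled values, 39 and 33 at a mean of at least 50, 212 and 145 without a filter, and 80 to 250 higher and 44 to 89 lower with a library left out. The cause of these changes was not tested.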
